A study of Arabidopsis thaliana and Boechera depauperata with 12 samples.

Results

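The chloroplast-encoded transcripts of *A. thaliana* were examined in plants given acquired heat stress (A/HS), basal heat stress (B/HS) or no heat stress. All rows of the *A. thaliana* count table whose identifier starts with ATCG, the prefix of the plastid genome, were taken, which gave 133 of 33977 rows. A/HS plants had 1 h at 38 °C, a recovery of 1 h at 22 °C and then 3 h at 43 °C. B/HS plants were moved straight to 38 °C for 3 h, and control plants stayed at 22 °C. Each of the 3 conditions had 2 libraries, which the Methods describe as biological replicates raised separately from germination. The libraries were made from total RNA, the sources used here name no mutant, transgene or chemical in any group, and plant age and the way RNA was selected are not given in them. The other species of the study, *B. depauperata*, is not treated here.

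The plastid genome of a land plant encodes a core set of photosynthesis subunits, part of the plastid ribosome, and the ribosomal and transfer RNAs that the organelle needs to translate them. Its genes are transcribed by a bacterial-type polymerase, whose core subunits are plastid-encoded and whose sigma factors are made in the nucleus, and by nuclear-encoded phage-type polymerases. Many of the genes are transcribed together as long precursors that are then cut, trimmed and edited, and nuclear-encoded RNA-binding proteins and nucleases set how long the products last. Plastid transcript levels therefore depend on synthesis and on decay, and counts do not separate them.

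The tissue given in the labels is root, and the markers went against it. The 11 green-tissue markers, nuclear genes such as *RBCS1A* (Rubisco small subunit), *RCA* (Rubisco activase) and *LHCB1.1* (a light-harvesting protein), summed to 20758 and 13987 per 1000000 nuclear counts (all counts outside the plastid and mitochondrial rows) after A/HS, to 20851 and 20064 after B/HS and to 34584 and 30209 in control plants. Of 12 root markers, between 6 and 10 had at most 8 counts in a library. The samples are therefore called plants here. The green-marker sum was lower in all 4 heat-stressed libraries than in both control libraries, and its part in the results was not tested. A/HS library 2 had the fewest root markers at or under 8 counts (6) and the lowest green-marker sum. Its root markers summed to 49.9 per 1000000 nuclear counts, against 29.9 in A/HS library 1 and 86.5 and 53.5 in control plants. The control sums were mostly *SCR*, with 208 and 162 counts in control plants and 52 in A/HS library 2. All root markers but *SCR*, *SHR*, *WOX5* and *ESB1* had their highest count in A/HS library 2. There *CASP1* had 38 counts, *EXPA7* 23 and *PRP3* 17, against at most 8, 7 and 7 in any other library. In such bulk RNA, fewer green cells and less plastid RNA per cell cannot be told apart.

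The totals ran from 11819511 to 15297546 counts per library. Control library 1 stood apart, with 73.3% of its counts on plastid rows against 55.6% to 63.2% in the other 5 libraries, and results that rest on it are also given without it. Of the 133 plastid rows, 4 held more than 1000000 counts in every library, and they are called the dominant rows. The files do not say which rows are ribosomal RNA, so the dominant rows were set aside in their place, and the 129 remaining rows stand for the protein-coding total although transfer RNA rows, and further ribosomal RNA rows, may be among them. The assembly TAIR10.1 from RefSeq annotates 85 protein-coding, 37 tRNA and 7 rRNA entries on the plastid genome, but by other tags than ATCG numbers. Its annotation notes give a protein to few of the 133 identifiers, and 5 of these are described by name. Of the rest, 5 are singled out by identifier and no role is given to them.

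The 5 named rows comprise *cemA* (ATCG00530), for an envelope membrane protein, and *psbG* (ATCG00430), annotated as a photosystem II protein although the name has since been reassigned to a subunit of the plastid NADH dehydrogenase-like complex. The other 3 are *clpP* (ATCG00670), for the proteolytic subunit of the plastid Clp protease, and *rpl2* (ATCG01310) and *rpl20* (ATCG00660), for proteins of the large ribosomal subunit. In TAIR10.1 (Pltd), *cemA* lies on the plus strand from 60741 to 61430 as 1 coding segment. The genes *rpl20* (68512 to 68865) and *clpP* (69910 to 71882, 3 coding segments) lie on the minus strand.

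The plastid genome holds an inverted repeat of 26264 bases, from 84171 to 110434 and again from 128215 to 154478, so a read from it matches both copies equally. The gene *rpl2* lies there as 2 copies, from 84337 to 85843 on the minus strand and from 152806 to 154312 on the plus strand, and their coding sequences of 825 bases had 0 differences. The first 60 coding bases of both copies are shown because they make plain why no read from them can be given to one copy; they come from RefSeq (TAIR10.1), 5′ to 3′ on the coding strand, with the start codon in capitals.
rpl2 copy at chrPltd:85784-85843, minus strand: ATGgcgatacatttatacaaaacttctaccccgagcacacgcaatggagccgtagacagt
rpl2 copy at chrPltd:152806-152865, plus strand: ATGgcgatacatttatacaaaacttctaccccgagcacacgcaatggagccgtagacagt
In the counts, 16 pairs of plastid rows held the same counts to within 10% or 2 counts in every library. These comprised both pairs of dominant rows and 14 pairs (28 rows) of the remaining rows, among them the row of *rpl2* and an unnamed partner. Sums over plastid rows therefore count some reads on both rows of a pair, and counts of rows are also given with each pair taken once.

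With both rows of each shared-count pair counted, plastid rows took most of the counts in every library. Their share was 63.2% and 55.6% after A/HS, 56.7% and 60.6% after B/HS and 73.3% and 61.1% in control plants. The ranges of A/HS and control overlapped, while both B/HS values lay below both control values. The mean share was 7.84 percentage points lower after A/HS (59.4% ± 5.39 in A/HS and 67.2% ± 8.61 in control plants, SD, n = 2 each), with a two-sided exact permutation P of 0.667. It was 8.61 points lower after B/HS (58.6% ± 2.77, SD, n = 2), with an exact permutation P of 0.333, the smallest value that 2 against 2 libraries allow. The differences without control library 1 were −1.75 points after A/HS and −2.53 after B/HS. With each pair of shared-count rows counted once, the plastid share was 47.1% and 39.2% after A/HS, 40.8% and 44.8% after B/HS and 58.9% and 45.4% in control plants. Plastid rows then took most of the counts in control library 1 only.

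The dominant rows carried nearly all of the plastid share. With both rows of each pair counted, they took 60.9% and 53.8% of all counts after A/HS, 53.4% and 57.0% after B/HS and 69.6% and 57.4% in control plants. Fitted with edgeR's quasi-likelihood test across the whole table, with library sizes scaled by TMM, their log2 fold changes over control lay between −0.19 and −0.15 after A/HS and between −0.16 and 0.049 after B/HS. None of the 4 passed an adjusted P of 0.05 in either comparison. The direction turned with the control library used, with medians of 0.41 after A/HS and 0.54 after B/HS without control library 1, and of −0.61 and −0.50 without control library 2, and none of the 4 passed in these fits either.

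The 129 remaining rows took 2.31% and 1.80% of all counts after A/HS, 3.27% and 3.58% after B/HS, and 3.73% and 3.74% in control plants. The A/HS values lay below all 4 others. The mean was 1.68 percentage points lower after A/HS than in control plants and 1.37 points lower than after B/HS (exact permutation P = 0.333 for each, the smallest possible). Per 1000 nuclear counts the remaining rows held 66.7 and 43.0 after A/HS, 79.0 and 95.1 after B/HS, and 149 and 100 in control plants. On this scale both heat treatments lay below control, but the gap between B/HS library 2 (95.1) and control library 2 (100) was narrow.

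**Figure D1:**
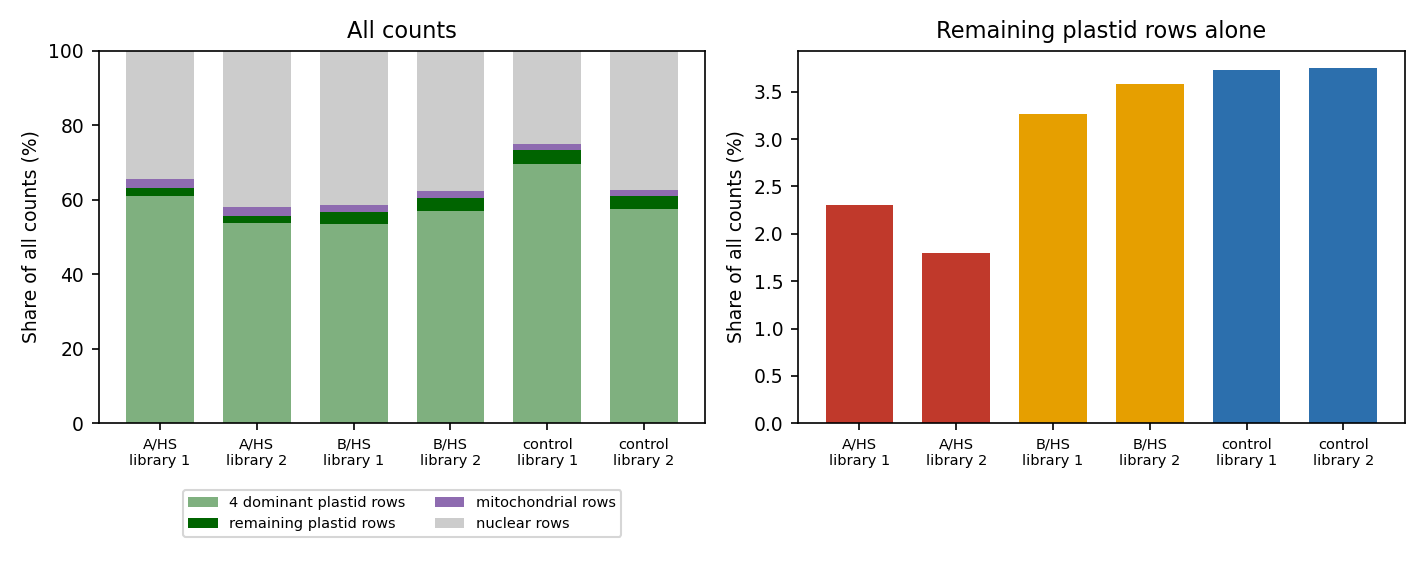
Share of all counts (%) in each library, for the dominant plastid rows, the remaining plastid rows, the mitochondrial rows and the nuclear rows (left, stacked) and for the 129 remaining plastid rows alone (right). The remaining rows took 2.31% and 1.80% of counts in the A/HS libraries, against 3.73% and 3.74% in the control libraries.

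A single row made up most of what was left after A/HS. ATCG00020, the most abundant of the remaining rows, was 61.5% and 58.6% of their total after A/HS, 39.3% and 48.4% after B/HS and 28.2% and 34.0% in control plants. In TMM-normalised counts per 1000000 (CPM) it stood at 15017 and 9380 after A/HS, 13847 and 19056 after B/HS and 12654 and 9569 in control plants. Its A/HS and control values overlapped. The log2 fold change over control was 0.13 (SE 0.43, adjusted P = 0.838, edgeR) after A/HS and 0.57 (SE 0.44, adjusted P = 0.321, edgeR) after B/HS, so its larger share came with no called change of its own level.

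The less abundant rows summed to lower levels. The 10 most abundant remaining rows, ATCG00020 included, summed to 22854 and 14467 CPM after A/HS, 30004 and 34140 CPM after B/HS and 33369 and 21613 CPM in control plants. The other 119 rows summed to 1547 and 1542 CPM after A/HS, 5231 and 5211 CPM after B/HS and 11511 and 6512 CPM in control plants. The mean was 5.84-fold lower after A/HS and 1.73-fold lower after B/HS. Control library 1 raised the control mean, and control library 2 (6512 CPM) lay closer to the B/HS values. The sum over the 10 rows overlapped between A/HS and control plants, and the sum over the 119 rows did not overlap between any of the groups. The 10 most abundant rows together made up between 74.4% of the remaining total (control library 1) and 93.7% (A/HS library 1).

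**Figure D2:**
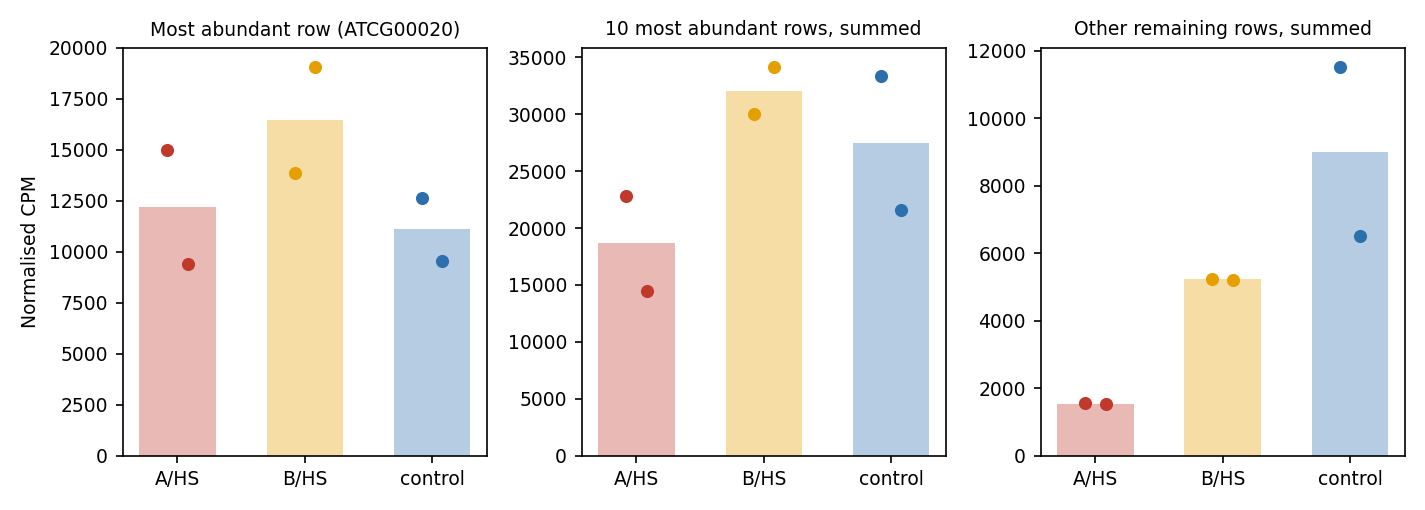
TMM-normalised CPM of the most abundant remaining plastid row, of the 10 most abundant rows summed and of the other 119 rows summed, by condition; points are libraries and bars are means of 2 libraries. The sum over the 119 rows was 1547 and 1542 CPM after A/HS, against 11511 and 6512 CPM in control plants, while ATCG00020 overlapped between the 2 conditions.

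Row by row, A/HS lowered most of the plastid transcripts. Of the 129 remaining rows, 112 had enough counts to be tested (edgeR's filterByExpr). The 17 others reached no more than 19 counts in a library, and 3 of them had none at all; a count of 0 allows up to 0.176 to 0.280 CPM, depending on the library, from counting error only. A row is DE here where its P-value, adjusted by Benjamini–Hochberg over all tested rows, was under 0.05 and its level differed 4-fold or more. After A/HS, 62 of the 112 rows were DE and lower than in control plants, while 3.67% of all 17669 tested rows were. None was DE and higher, against a background of 2.92%. With the adjusted P alone, 101 plastid rows were lower and 1 was higher, against 17.6% and 18.3% of all tested rows. The median log2 fold change of the 112 rows was −2.11 (4.32-fold lower), and that of all tested rows was 0.019. Single rows ran from −5.46 to 0.68, with the middle part of the rows between −3.38 and −1.43 (quartiles). Some of the lowest values came from rows with 0 counts in an A/HS library. With each shared-count pair taken once, 52 of 99 rows were DE. Without control library 1, 47 of 113 were DE and the median was −1.74.

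After B/HS the change was smaller. There were 11 DE rows among the 112, all lower than in control plants, beside a background of 4.92% lower and 3.76% higher over all tested rows. With the adjusted P alone, 42 rows were lower and 1 was higher, against 19.7% and 20.0% of all tested rows. The median log2 fold change was −0.51, and that of all tested rows was −0.020. The 11 DE rows were 5 shared-count pairs and 1 other row, so that 6 of 99 were DE with pairs taken once. These calls rested on control library 1: without it 4 rows were DE, 14 were lower and 2 higher at the adjusted P alone, and the median was −0.096.

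The direct comparison separated the treatments. Relative to B/HS, 38 rows were DE and lower after A/HS and none was DE and higher, while 0.611% of all tested rows were DE and lower and 1.17% higher. At the adjusted P alone 82 rows were lower and 0 higher, beside 7.63% and 6.25% of all tested rows. The median log2 difference was −1.74. This comparison uses no control library directly, and without control library 1 in the fit 41 of 113 rows were DE.

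**Figure D3:**
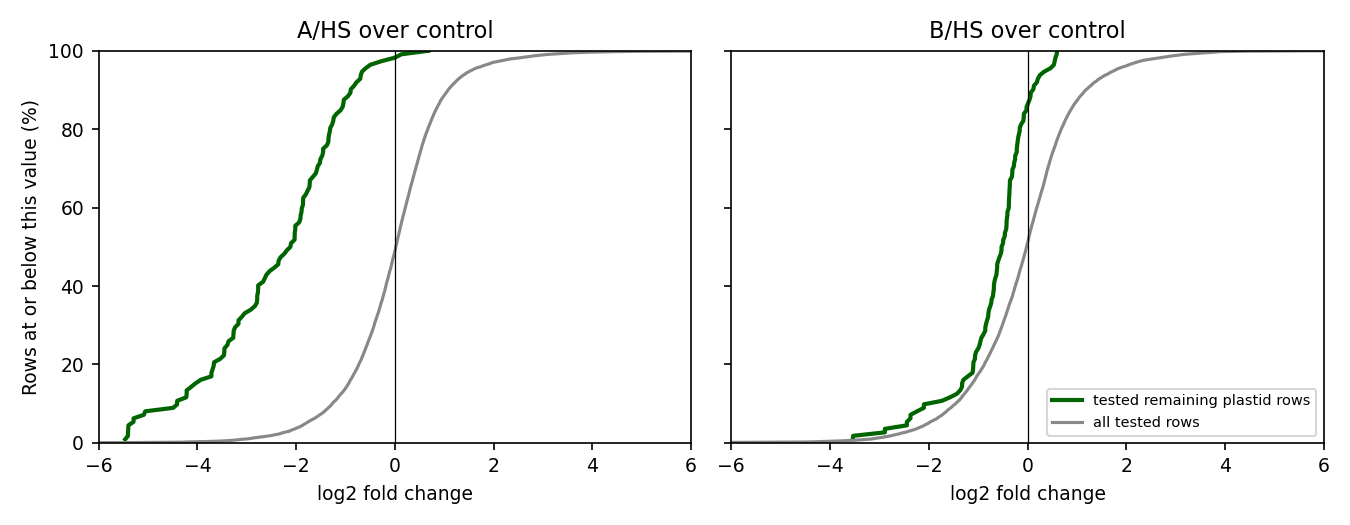
Cumulative share (%) of rows at or below a given log2 fold change, for the 112 tested remaining plastid rows and all 17669 tested rows, after A/HS (left) and B/HS (right) over control. The plastid curve after A/HS lies far to the left, with a median of −2.11 against 0.019, and after B/HS its median is −0.51 against −0.020.

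Among the named rows, both genes of the large subunit of the plastid ribosome fell after A/HS. The row of *rpl2* had 67.3 and 54.8 CPM after A/HS, 401 and 370 after B/HS and 737 and 445 in control plants. The 3 conditions did not overlap, and the A/HS libraries were far below the others. The log2 fold change over control was −3.27 (SE 0.28, adjusted P = 4.4e-06, edgeR) after A/HS and −0.62 (SE 0.26, adjusted P = 0.0758, edgeR) after B/HS. As reads from the repeat go to both copies, this row may hold those of either.

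The row of *rpl20* fell under both treatments. It had 2.84 and 2.33 CPM after A/HS, 3.64 and 4.10 after B/HS and 17.9 and 8.35 in control plants. Both A/HS libraries lay below both B/HS libraries, and these below control. The log2 fold change was −2.32 (SE 0.34, adjusted P = 0.000206, edgeR) after A/HS and −1.73 (SE 0.33, adjusted P = 0.00109, edgeR) after B/HS, and the direct difference of A/HS from B/HS was −0.58 (SE 0.37, adjusted P = 0.310, edgeR). Its changes were −1.68 and −1.09 when control library 1 was left out.

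The envelope protein gene *cemA* had 5.54 and 6.09 CPM after A/HS, 24.7 and 30.8 after B/HS and 52.4 and 28.8 in control plants. The B/HS and control libraries overlapped, and the A/HS libraries were below both. Its log2 fold change was −2.80 after A/HS (SE 0.28, adjusted P = 1.1e-05, edgeR), and after B/HS was −0.54 (adjusted P = 0.100, edgeR).

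The protease gene *clpP* had the smallest A/HS change of the named rows. It stood at 84.3 and 106 CPM after A/HS, 163 and 180 after B/HS and 358 and 212 in control plants. The conditions did not overlap. The log2 fold change was −1.58 (SE 0.26, adjusted P = 0.000469, edgeR) in A/HS plants, which did not reach 4-fold, and −0.73 (adjusted P = 0.0345, edgeR) after B/HS, which did not pass without control library 1 (−0.29, adjusted P = 0.406).

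The row of *psbG* also fell after A/HS by less than 4-fold. It had 6.44 and 9.10 CPM after A/HS, 20.8 and 21.1 after B/HS and 34.0 and 23.8 in control plants, again without overlap. Its log2 fold change was −1.89 (SE 0.23, adjusted P = 5.4e-05, edgeR) after A/HS and −0.46 (adjusted P = 0.114, edgeR) after B/HS.

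Per kb of coding sequence, the order of the named rows, with *psbG* not included, differed between conditions. Mean levels after A/HS were 161 CPM per kb for *clpP*, 74.0 for *rpl2*, 8.42 for *cemA* and 7.30 for *rpl20*. In control plants *rpl2* came first with 716 CPM per kb, before *clpP* with 482, *cemA* with 58.9 and *rpl20* with 37.1. These levels are a description, and *cemA* and *rpl20* in control plants differed by less than the spread of the 2 libraries. The row of *rpl2* may hold reads of both its copies, while *clpP* lies outside the repeat. Their order per gene copy is therefore not known.

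Of the unnamed rows, ATCG00450 fell steeply after A/HS. It had 25 and 34 counts (1.73 and 2.56 CPM) after A/HS, 851 and 1141 (77.5 and 88.3 CPM) after B/HS and 1022 and 859 (95.4 and 50.5 CPM) in control plants. B/HS and control overlapped. The log2 fold change was −5.09 (SE 0.34, adjusted P = 1.4e-06, edgeR) after A/HS over control, 0.19 (adjusted P = 0.592, edgeR) after B/HS over control and −5.27 (SE 0.34, adjusted P = 5.3e-06, edgeR) in A/HS over B/HS. Without control library 1 the B/HS value was 0.73, with an adjusted P of 0.0434.

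ATCG00930, which shared its counts with a partner row, fell under both treatments. It had 91 and 73 counts (6.30 and 5.49 CPM) after A/HS, 241 and 274 (21.9 and 21.2 CPM) after B/HS and 4072 and 2039 (380 and 120 CPM) in control plants. The conditions did not overlap, although the control libraries differed more than 3-fold in CPM. The log2 fold change was −5.40 (SE 0.45, adjusted P = 3.4e-06, edgeR) after A/HS and −3.53 (SE 0.41, adjusted P = 2.3e-05, edgeR) after B/HS. Without control library 1 these were −4.33 and −2.46.

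Only 1 row in each treatment was higher than control at the adjusted P, and neither reached 4-fold. ATCG00220 had 31.1 and 24.2 CPM after A/HS, 20.1 and 31.7 after B/HS and 15.1 and 19.2 in control plants. Both control values lay below the others, and the A/HS and B/HS values overlapped. It was higher after A/HS by 0.68 on the log2 scale (SE 0.24, adjusted P = 0.0385, edgeR). This call was lost without control library 1 (0.54, adjusted P = 0.213). ATCG00720 had 62.8 and 61.3 CPM after A/HS, 97.1 and 91.8 after B/HS and 67.1 and 57.9 in control plants, so that the B/HS libraries stood above the other 4. It was higher after B/HS by 0.60 (SE 0.18, adjusted P = 0.0200, edgeR), also without control library 1 (0.72, adjusted P = 0.0347), and its log2 fold change after A/HS was −0.0086 (adjusted P = 0.976, edgeR).

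**Figure D4:**
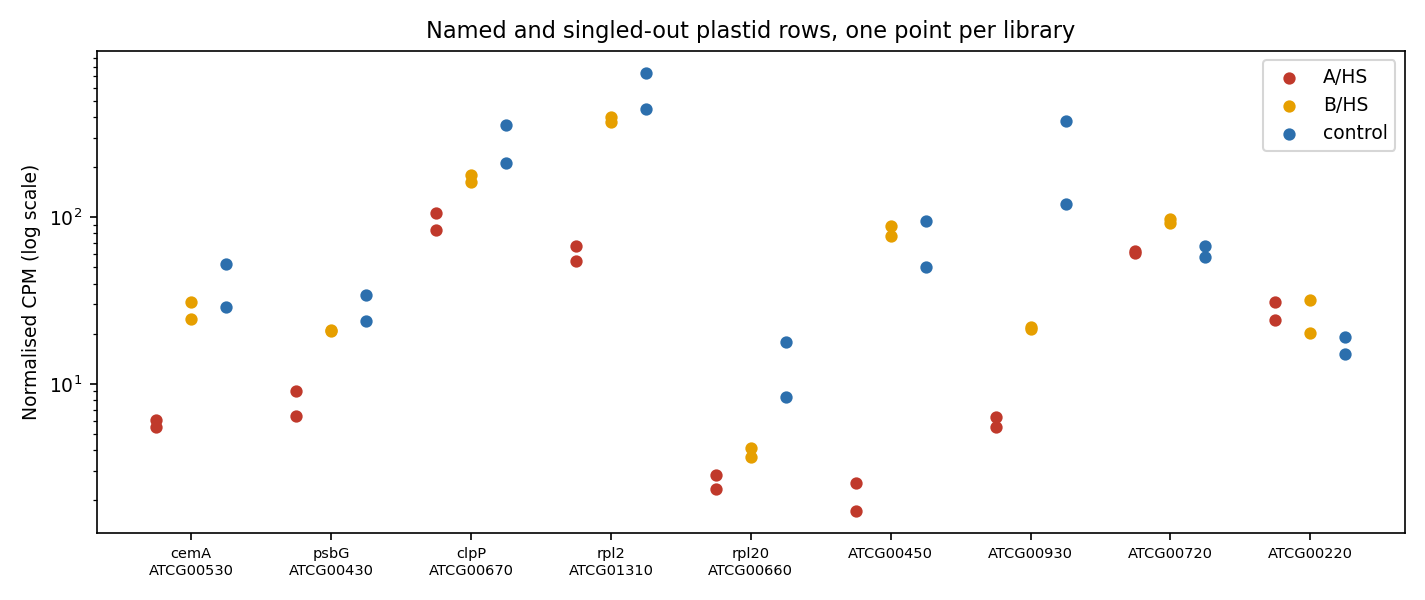
TMM-normalised CPM (log axis) of the 5 named plastid rows and 4 unnamed ones, 1 point per library, in the order A/HS, B/HS and control within each row. The A/HS points lie below the control points in the 5 named rows and in ATCG00450 and ATCG00930, while ATCG00450 at B/HS (77.5 and 88.3 CPM) lies within its control range.

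Remaining rows next to each other in identifier order changed more alike than other remaining rows. Untested rows and dominant rows were left out of this order, so neighbours need not have adjacent identifiers. With each shared-count pair taken once, 98 neighbouring pairs among 99 rows had a median absolute difference in log2 fold change of 0.60 after A/HS, against 1.27 over all pairs of these rows. After B/HS the values were 0.32 and 0.56. In A/HS, runs of 7, 10 and 3 such neighbours lay at or below −3, a limit chosen after the values were seen. The run of 3 spans the dominant row ATCG00920, which was not lowered in this way. The run of 10 reached −5.41, but it held a row with 0 and 2 counts after A/HS, so its lowest value rests on few counts. The 5 pairs that were DE after B/HS formed 2 mirrored clusters in the later part of the identifier order. The mirroring follows from the shared counts and is not a separate result. Whether neighbours in this order share a transcript was not tested.

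**Figure D5:**
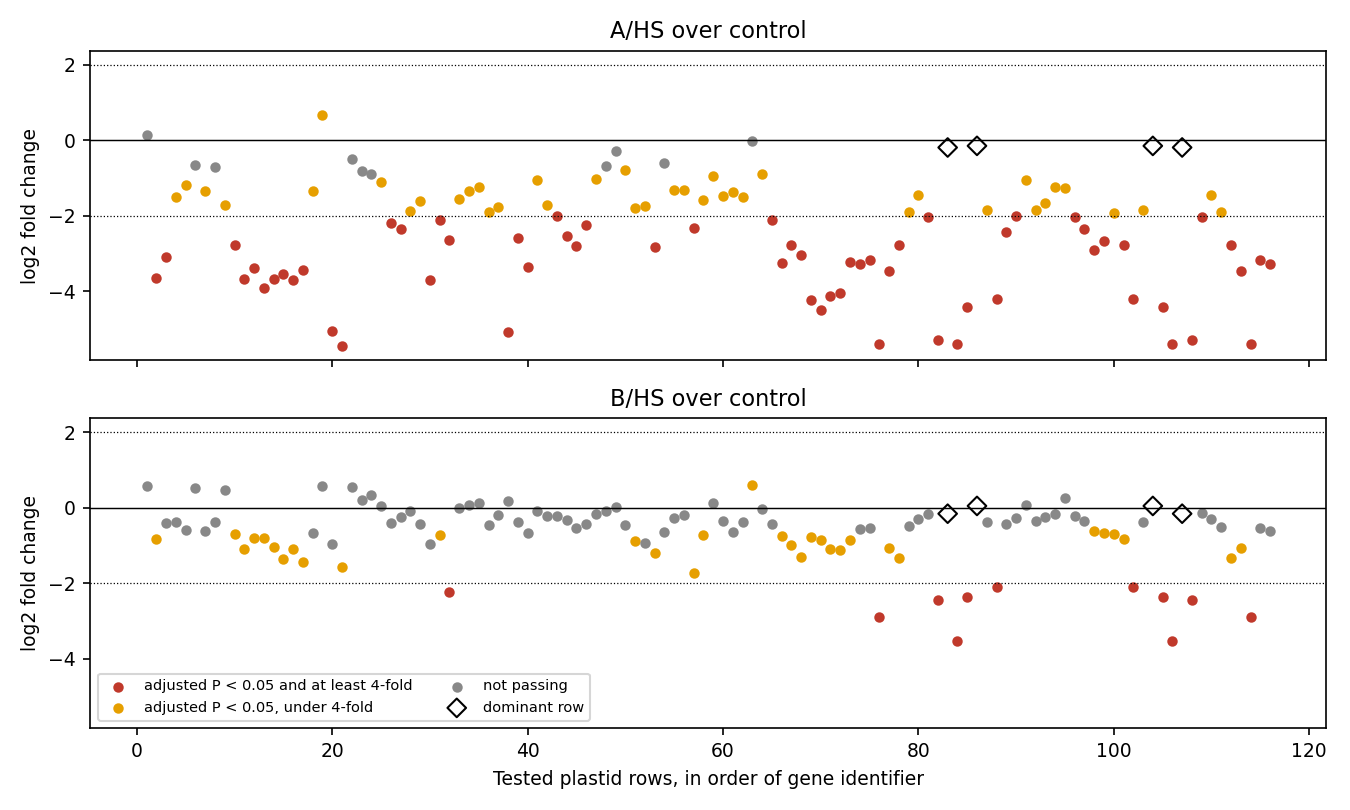
Log2 fold change over control of the 116 tested plastid rows in order of gene identifier, after A/HS (top) and B/HS (bottom); colours give the call and diamonds mark the 4 dominant rows. Dominant rows lie between −0.19 and 0.049 in both panels, with all 6 libraries fitted. Runs of neighbouring remaining rows, dominant rows passed over, lie at or below −3 after A/HS.

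Changes were also weaker in the abundant rows. After A/HS the 10 most abundant remaining rows had a median log2 fold change of −0.997, with 6 past the adjusted P, and the other 102 tested rows a median of −2.21, with 96 past it. After B/HS the medians were −0.080 and −0.53, with 0 and 43 rows past the adjusted P. These are descriptions, as abundance and fold change come from the same counts.

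Relative to the plastid total, the fall after A/HS was uneven and not shared by all rows. Here the library size was set to the total over the 129 remaining rows, so a value of 0 means that a row kept its share of that total. After A/HS, 55 of 112 rows were lower and 1 was higher at the adjusted P alone, while 2.54% of all tested rows were lower and 30.4% higher. The median of the 112 rows was −1.20 (2.30-fold lower). The most abundant row made up 61.5% and 58.6% of the total after A/HS, and the balance of the calls depended on the total used. With the 2 most abundant rows left out of the total, 37 rows were lower and 11 higher. Of all 17669 tested rows, 137 were then lower and 14038 higher. With a median of ratios over the remaining rows, 36 were lower and 22 higher. Among all tested rows, 112 were then lower and 15296 higher.

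On this scale *rpl2* (−2.38, SE 0.52, adjusted P = 0.000117, edgeR) lost share after A/HS, as did *cemA* (−1.86, adjusted P = 0.00176, edgeR) and *rpl20* (−1.42, adjusted P = 0.0210, edgeR). How far these rows fell depends on the total. The median of the 112 rows was −0.18 without the 2 most abundant rows and 0.030 by median of ratios. The log2 changes of *psbG* (−0.96, adjusted P = 0.102, edgeR) and *clpP* (−0.62, adjusted P = 0.322, edgeR) did not pass and turned positive under both other totals. ATCG00220 gained share (1.45, SE 0.49, adjusted P = 0.0145, edgeR), and ATCG00020 stood at 0.95 (adjusted P = 0.0799, edgeR). With 1 library left out at a time, the change of ATCG00220 ran from 1.03 to 2.05. Its call was not kept in all of these fits, and was lost without control library 1.

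After B/HS, 16 rows were lower and 0 higher relative to the plastid total, against 10.1% and 6.55% of all tested rows, and the median was −0.55. Leaving out either B/HS library left 2 rows. The named row that passed was *rpl20* (−1.74, SE 0.50, adjusted P = 0.00580, edgeR). In the direct comparison 31 rows were lower and 0 higher after A/HS than after B/HS, against 0.362% and 27.2% of all tested rows. That count fell to 1 row without B/HS library 1 and to 2 without B/HS library 2, and it was 10 without A/HS library 1 and 16 without A/HS library 2.

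The mitochondrial rows, the other organelle genome, moved the other way relative to control plants. Of 104 tested, 50 were higher and 2 lower at the adjusted P alone after A/HS, with a median log2 fold change of 0.79, and 55 were higher and 3 lower after B/HS, also with a median of 0.79. Over all tested rows 18.3% were higher and 17.6% lower after A/HS, and 20.0% were higher and 19.7% lower after B/HS. The mitochondrial share of all counts was 2.25% and 2.55% after A/HS, 1.96% and 1.77% after B/HS and 1.61% and 1.54% in control plants. Without control library 1, 56 of 113 were higher and 0 lower after A/HS, and 74 were higher and 1 lower after B/HS. No test of the difference between the 2 organelles was run.

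None of the 31 listed nuclear genes that serve plastid transcription and RNA stability was DE. Over all tested rows, 2.92% were DE and higher and 3.67% lower after A/HS, and 3.76% and 4.92% after B/HS. In A/HS over B/HS these shares were 1.17% and 0.611%. At such shares few calls would fall among 31 genes, so nothing is read from their absence. All 31 listed genes were tested, in each of the 3 comparisons. At the adjusted P alone, 3 were higher and 7 lower after A/HS, with a list median of −0.054, and 6 were higher and 4 lower after B/HS, with a median of 0.15. These are 9.68% and 22.6% of the list after A/HS and 19.4% and 12.9% after B/HS, beside 18.3% and 17.6%, and 20.0% and 19.7%, of all tested rows, so nothing particular to the list is read from them. Without control library 1 these counts were 0 and 2 after A/HS and 3 and 0 after B/HS.

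Both listed genes annotated as DNA/RNA polymerases were higher after both treatments with all 6 libraries fitted. *SCA3* (AT2G24120), for the plastid phage-type RNA polymerase, had 22.6 and 13.8 CPM after A/HS, 30.6 and 32.8 after B/HS and 12.2 and 9.94 in control plants. All heat-stressed libraries lay above control. Its log2 fold change was 0.72 (SE 0.24, adjusted P = 0.0298, edgeR) after A/HS, which was lost without control library 1 (adjusted P = 0.0521), and 1.52 (SE 0.24, adjusted P = 0.000247, edgeR) after B/HS, which was kept (1.69). AT5G15700, with the same annotation, had 7.89 and 6.16 CPM after A/HS, 7.83 and 10.3 after B/HS and 3.08 and 4.47 in control plants. It was higher by 0.87 after A/HS (adjusted P = 0.0219, edgeR) and by 1.24 after B/HS (adjusted P = 0.00250, edgeR), and only the B/HS call was kept without control library 1.

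Among the 6 sigma factor genes, which direct the bacterial-type polymerase to promoters, *SIG2* (AT1G08540) fell after A/HS by 0.54 on the log2 scale (adjusted P = 0.0342, edgeR) and *SIGC* (AT3G53920) rose by 0.60 after B/HS (adjusted P = 0.0425, edgeR). Neither call was kept without control library 1. *SIGA*, *SIG4*, *SIGE* and *SIGF* passed in neither comparison, with log2 fold changes between −0.29 and 0.33 after A/HS and between −0.64 and 0.46 after B/HS.

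Counted against the same shares of all tested rows, of the 12 polymerase-associated proteins, 1 was higher and 5 were lower after A/HS, and 2 were higher and 2 lower after B/HS. Of the 11 proteins of RNA stability and processing, 0 were higher and 1 lower after A/HS, and 1 was higher and 2 lower after B/HS. Examples chosen after their values were seen are *PTAC2*, of the plastid transcriptionally active chromosome, and *RIF10*, for polynucleotide phosphorylase, an enzyme of plastid RNA decay and end trimming. *PTAC2* (AT1G74850) had 8.23 and 6.54 CPM after A/HS, 10.4 and 11.8 after B/HS and 22.9 and 14.3 in control plants (log2 fold change −1.31 after A/HS, adjusted P = 0.00109, edgeR). *RIF10* (AT3G03710) had 7.34 and 5.56 CPM after A/HS, 10.7 and 9.29 after B/HS and 17.4 and 14.3 in control plants (−1.29 after A/HS, adjusted P = 0.000590, edgeR). Both A/HS calls were kept without control library 1, at −0.94 and −1.13.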

How the data were processed

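Reads were quality-trimmed by the authors (fastx toolkit) and mapped to TAIR10 with TopHat (version 1.4.1 in the submitters' processing notes). They deposited raw counts per gene, without normalization, which were used as deposited. How reads were counted, with or without strand, and where multiply matching reads went are not given in the sources used here.

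Counts of the whole *A. thaliana* table in 6 libraries were fitted with edgeR 4.0.16 (R 4.3.3; filterByExpr, TMM, glmQLFit, glmQLFTest), with p-values adjusted over all 17669 tested rows. DE needed an adjusted P under 0.05 and 4-fold or more, after the study's Methods, which name DESeq2; DESeq2 1.42.0 was an alternative. The SE of a log2 fold change is its size over the square root of F. With 2 libraries per group, an exact permutation test cannot go below 0.333. Replicates differed by more than sampling noise (chi-square per degree of freedom between 50.9 and 91.8 over the remaining rows). In the second fit, library size was the total over the 129 remaining rows.

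Members and lists were chosen with earlier results of these data known. The planned rule named the 10 most abundant protein-coding genes, the 6 highest and 6 lowest relative changes, the highest gene of each functional group, the rRNA rows, and the sigma factors and phage-type polymerases. Few plastid identifiers had a name, so for plastid rows it was replaced by 5 of these and 5 others. The others were the most abundant row, the row called higher in each treatment and 2 rows that fell. Functional groups were not formed. One further plastid row is not reported here. The dominant rows and the remaining rows replaced the planned rRNA and protein-coding classes, also after the counts were seen. Scripts were tested on simulated data. Alternatives were other size factors, DESeq2, no filter beyond 1 count, other plastid totals, only the 4 libraries compared, each library left out and, added after seeing the data, each shared-count pair once.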

Additional observations from a re-analysis of the deposited data

How the results depend on the processing

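Leaving out 1 library at a time gave 47 to 76 DE plastid rows after A/HS, 4 to 14 after B/HS and 33 to 41 between the treatments. Relative to the plastid total it gave 45 to 59, 2 to 16 and 1 to 40 rows at the adjusted P alone. For the nuclear list it gave 2 to 8, 3 to 12 and 0 to 8. The difference in plastid share from control ran from −13.9 to −1.75 percentage points after A/HS and from −14.7 to −2.53 after B/HS. With pairs once, 6 rows were DE after B/HS. Without the 2 most abundant rows in the total, 10 rows were called relative to it after B/HS. DESeq2 called 6 nuclear genes after A/HS and 5 after B/HS. Over the remaining rows alone, the share after B/HS differed by −0.31 points. The cause was not tested. Every other setting kept the count of DE plastid rows within 1.5 times.

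Signs turned only where the change was not called in the analysis above. Over the libraries left out, the median log2 change of the dominant rows ran from −0.61 to 0.41 after A/HS, from −0.50 to 0.54 after B/HS and from −0.41 to 0.11 in A/HS over B/HS. The log2 change of single rows ran from −0.24 to 0.45 in ATCG00020, from −0.15 to 0.11 in ATCG00720, from −0.21 to 0.31 in *SIGC* and from −0.53 to 0.079 in *CSP41A* after A/HS. After B/HS it ran from −0.24 to 0.73 in ATCG00450, from −0.14 to 0.011 in *SIG2* and from −0.0060 to 0.090 in *PTAC7*, and in A/HS over B/HS from −0.19 to 0.45 in ATCG00220. Relative to the total without the 2 top rows or by median of ratios, *psbG* was at 0.049 and 0.23 and *clpP* at 0.39 and 0.57 after A/HS, and *psbG* at 0.026 after B/HS by median of ratios.

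No paired analysis was possible because the labels give the libraries of a condition no shared replicate numbers. A fit on plastid rows alone was not run, as its p-values would be adjusted over these rows only. Depth limited 17 rows, which were not tested.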
